A study of Mus musculus with 2 samples.

Results

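The genes described here encode the machinery of mitosis: the mitotic cyclins and kinases, the spindle checkpoint, the kinetochore, the condensin complex and the proteins of cytokinesis. Of 52 such genes, 51 had at least 1 probe set that the platform annotation pairs with a single symbol, out of 18193 genes named in this way. They were read by 116 of 45037 probe sets. Ccnb1, which encodes cyclin B1, had no such probe set in the annotation used here and was not analysed. The values come from 2 Affymetrix arrays, with total RNA as the extracted molecule and biotin as the label. The first array holds neutrophils of mice labelled Jdp2 KO, and the second holds neutrophils of mice labelled Jdp2 WT. Jdp2 encodes Jun dimerization protein 2, a basic leucine-zipper factor related to Jun and Fos. All mice carried a mixed C57BL/6 /129/J background, and all cells were sorted from bone marrow as CD11b+ Ly6Clo Ly6G+. The sources used here do not give the age of the mice, the number of mice behind an array or the deleted part of Jdp2.

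Neutrophils arise in the bone marrow from precursors that divide through the promyelocyte and myelocyte stages. Division stops afterwards, while the cell takes on its segmented nucleus and its later granules. Mitotic genes are transcribed in a wave late in the cell cycle, when the repressor complex DREAM has been replaced by activators that include B-Myb and FoxM1. In bone marrow, transcripts of this wave mark dividing precursors of every lineage.

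With 1 array for each label there were no replicates, no difference has a p-value, and no spread between mice could be estimated. Values are log2 RMA signals, and a difference is the value under the knockout label minus that under the wild-type label, so that a difference of 1 is 2-fold. Where several probe sets read a gene, the one with the strongest mean signal stands for it. The level filter kept genes for which that mean reached 5.66, the mean of the medians of the arrays. Those medians were 5.67 (knockout label) and 5.65 (wild-type label). Jdp2 did not check the labels: its strong probe set read 12.38 on the array labelled knockout and 11.997 on the array labelled wild type, and its weak probe set read 5.40 under the knockout label and 5.24 under the wild-type label. The sources used here do not say whether these probes lie in the deleted part, so a direction is always that of the labels. The 8 measured markers of mature neutrophils were far above the filter on both arrays, from 10.67 (Itgam, the CD11b of the sort) to 14.47 (S100a8) under the knockout label and from 11.09 (Itgam) to 14.37 (S100a9) under the wild-type label. Ly6g itself had no probe set with a single symbol in the annotation used here.

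Mitotic genes were slightly and broadly higher in the array labelled Jdp2 KO. Of the 51 measured genes, 50 passed the level filter, and of these 40 had a difference above 0, which is 80%. Over all 10543 genes that passed, the share above 0 was 44.4%. The median difference was 0.20, or 1.15-fold, for the 50 mitotic genes and -0.04 for all genes that passed. The shift was small for every gene: differences ran from -0.33 for Cenpe to 0.75 for Cenpk, and none of the 50 reached 2-fold in either direction. Over all genes that passed, 2.41% were at least 2-fold higher and 1.98% at least 2-fold lower.

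The middle 50% of the mitotic genes ran from 0.08 to 0.31, against -0.26 to 0.18 for all genes that passed. Only 3 of the 50, or 6%, had a difference of at least 0.5 (Cenpk, Ect2 and Spc24), against 8.97% of all genes that passed. None had a difference of -0.5 or lower, against 10.7% of all. In the plot of cumulative differences the curve of the mitotic genes is steeper and lies to the right of the curve of all genes up to a difference of about 0.5. How the share at 0.5 or more compares with other genes depended on the filter, the scaling and the choice of probe sets. With the filter raised to the 75th percentile, 3 of the 44 mitotic genes that passed still had a difference of at least 0.5, against 4.17% of all 5994 genes. None had -0.5 or lower there, against 6.97%. With quantile normalisation, 5 of the 50 had at least 0.5, against 9.86% of all genes that passed. Averaged over all probe sets of a gene, 5 of the 50 did, against 6.39%. Whether related genes lean one way between any pair of such arrays cannot be told from 1 array for each label.

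**Figure D1:**
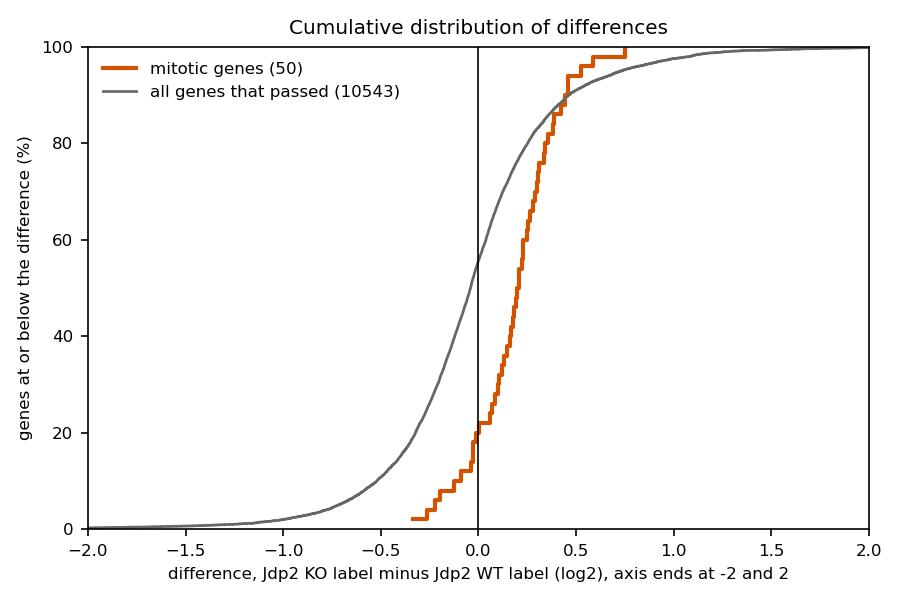
Cumulative share of genes (percent, vertical axis) against the log2 difference, Jdp2 KO label minus Jdp2 WT label (horizontal axis), for the 50 mitotic genes that passed the level filter (orange) and all 10543 genes that passed (grey). The mitotic genes have a median of 0.20 and all genes a median of -0.04, and the orange curve lies within -0.33 to 0.75.

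The regulatory sequences of these genes share elements that the choice of genes did not use. In promoters of late cell-cycle genes, the cell cycle homology region (CHR) is the element bound by the DREAM and MuvB complexes, and CCAAT boxes upstream of it are bound by the activator NF-Y. RefSeq promoter windows (GRCm38.p6, 250 bases before to 50 after the start of transcription) were matched by gene ID for 41 of the 52 genes, in 46 windows. Windows were searched on both strands for TTTGAA or TTTAAA as the CHR and for CCAAT as the box, and TTTAAA reads the same on both strands. Both elements occurred in 29 of the 46 windows, or 63.0%, against 10.7% of all 32851 windows and 7.60% of 10909 windows of genes that passed the level filter. A CHR match, with or without a box, was found in 73.9% of the mitotic windows and 27.6% of all windows, and a CCAAT match in 76.1% of the mitotic windows and 37.4% of all windows.

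The 4 windows below belong to the genes with the largest absolute differences among those that hold both elements. Capitals mark every CHR and CCAAT match, where ATTGG is CCAAT on the other strand, and no CHR match overlaps a CCAAT match in these windows.
Ect2, chr3:27153829-27154128, minus strand: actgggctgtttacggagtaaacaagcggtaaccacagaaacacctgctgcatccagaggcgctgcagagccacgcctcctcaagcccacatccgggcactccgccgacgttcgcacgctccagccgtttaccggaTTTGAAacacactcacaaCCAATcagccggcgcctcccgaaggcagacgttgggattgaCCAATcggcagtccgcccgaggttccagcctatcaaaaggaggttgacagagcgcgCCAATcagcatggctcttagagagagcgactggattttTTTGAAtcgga
Prc1, chr7:80294201-80294500, plus strand: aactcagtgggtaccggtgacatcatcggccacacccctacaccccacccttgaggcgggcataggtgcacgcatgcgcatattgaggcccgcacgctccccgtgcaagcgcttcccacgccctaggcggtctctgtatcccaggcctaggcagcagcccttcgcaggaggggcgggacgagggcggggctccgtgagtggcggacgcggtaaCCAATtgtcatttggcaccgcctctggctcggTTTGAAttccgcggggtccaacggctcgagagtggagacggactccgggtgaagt
Ccnb2, chr9:70421505-70421804, minus strand: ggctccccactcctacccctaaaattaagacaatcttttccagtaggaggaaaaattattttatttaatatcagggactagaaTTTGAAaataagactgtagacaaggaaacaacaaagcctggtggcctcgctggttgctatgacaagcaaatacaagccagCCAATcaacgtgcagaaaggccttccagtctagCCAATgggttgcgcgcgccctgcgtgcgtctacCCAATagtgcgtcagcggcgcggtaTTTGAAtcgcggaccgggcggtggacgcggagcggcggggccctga
Cenpa, chr5:30666636-30666935, plus strand: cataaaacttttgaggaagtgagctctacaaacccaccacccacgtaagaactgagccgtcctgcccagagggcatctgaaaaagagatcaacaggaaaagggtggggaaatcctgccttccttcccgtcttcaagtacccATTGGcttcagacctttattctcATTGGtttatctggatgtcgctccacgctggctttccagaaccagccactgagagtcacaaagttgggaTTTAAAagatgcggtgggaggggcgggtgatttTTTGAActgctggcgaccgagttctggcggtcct

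In Ccnb2 the CCAAT boxes begin 87, 54 and 21 bases before the annotated start, and CHR matches begin 167 bases before and 4 bases after it. In Prc1 a single box begins 37 bases before the start and the CHR match 5 bases before it. In Cenpa the boxes are on the other strand, beginning 109 and 86 bases before the start, followed by CHR matches 17 bases before and 16 bases after it. Ect2 holds boxes 96 and 55 bases before the start and 1 base after it, with CHR matches 114 bases before and 39 bases after it. The match is a description of letters and shows no binding.

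Genes with both elements and the other matched genes gave similar differences on these arrays. The 26 genes with both elements in a window had a median difference of 0.20, ranging from -0.33 to 0.59, and 22 of them lay above 0. The 14 other matched genes that passed had a median of 0.17, ranging from -0.26 to 0.75, and 10 lay above 0. With 1 array for each label no test of this contrast was made.

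Among the genes that drive entry into mitosis, the cyclins and their kinase were higher under the knockout label. Ccnb2, encoding the mitotic cyclin B2, read 10.32 under the knockout label and 9.89 under the wild-type label, a difference of 0.42 or 1.34-fold. Ccna2, encoding cyclin A2 of S phase and G2, read 10.86 under the knockout label and 10.53 under the wild-type label, and its second probe set differed by 0.12. Cdk1, the kinase that these cyclins activate, read 10.75 under the knockout label and 10.50 under the wild-type label. All probe sets of these 3 genes thus lay on the same side. The Cdc25 phosphatases, which remove the inhibitory phosphates from Cdk1, did not share a direction. Cdc25b, thought to act first at the centrosome, was lower at 11.23 under the knockout label and 11.49 under the wild-type label, a difference of -0.26. Cdc25c differed by 0.30 and by 0.24 with its second probe set.

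The mitotic kinases were also mixed. Plk1, the polo-like kinase of mitotic entry, spindle assembly and cytokinesis, read 7.64 under the knockout label and 7.84 under the wild-type label, a difference of -0.19. Aurka, encoding the Aurora kinase of the spindle poles, read 9.30 under the knockout label and 9.04 under the wild-type label. Plk4, the kinase that starts centriole duplication, read 9.08 under the knockout label and 8.83 under the wild-type label, a difference of 0.26. The size of the Plk4 difference depended on the probe set, since its other probe sets differed by 0.65 and 0.70. These values lie on 1 side of 0 for Plk4 and Aurka, and on the other for Plk1.

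**Figure D2:**
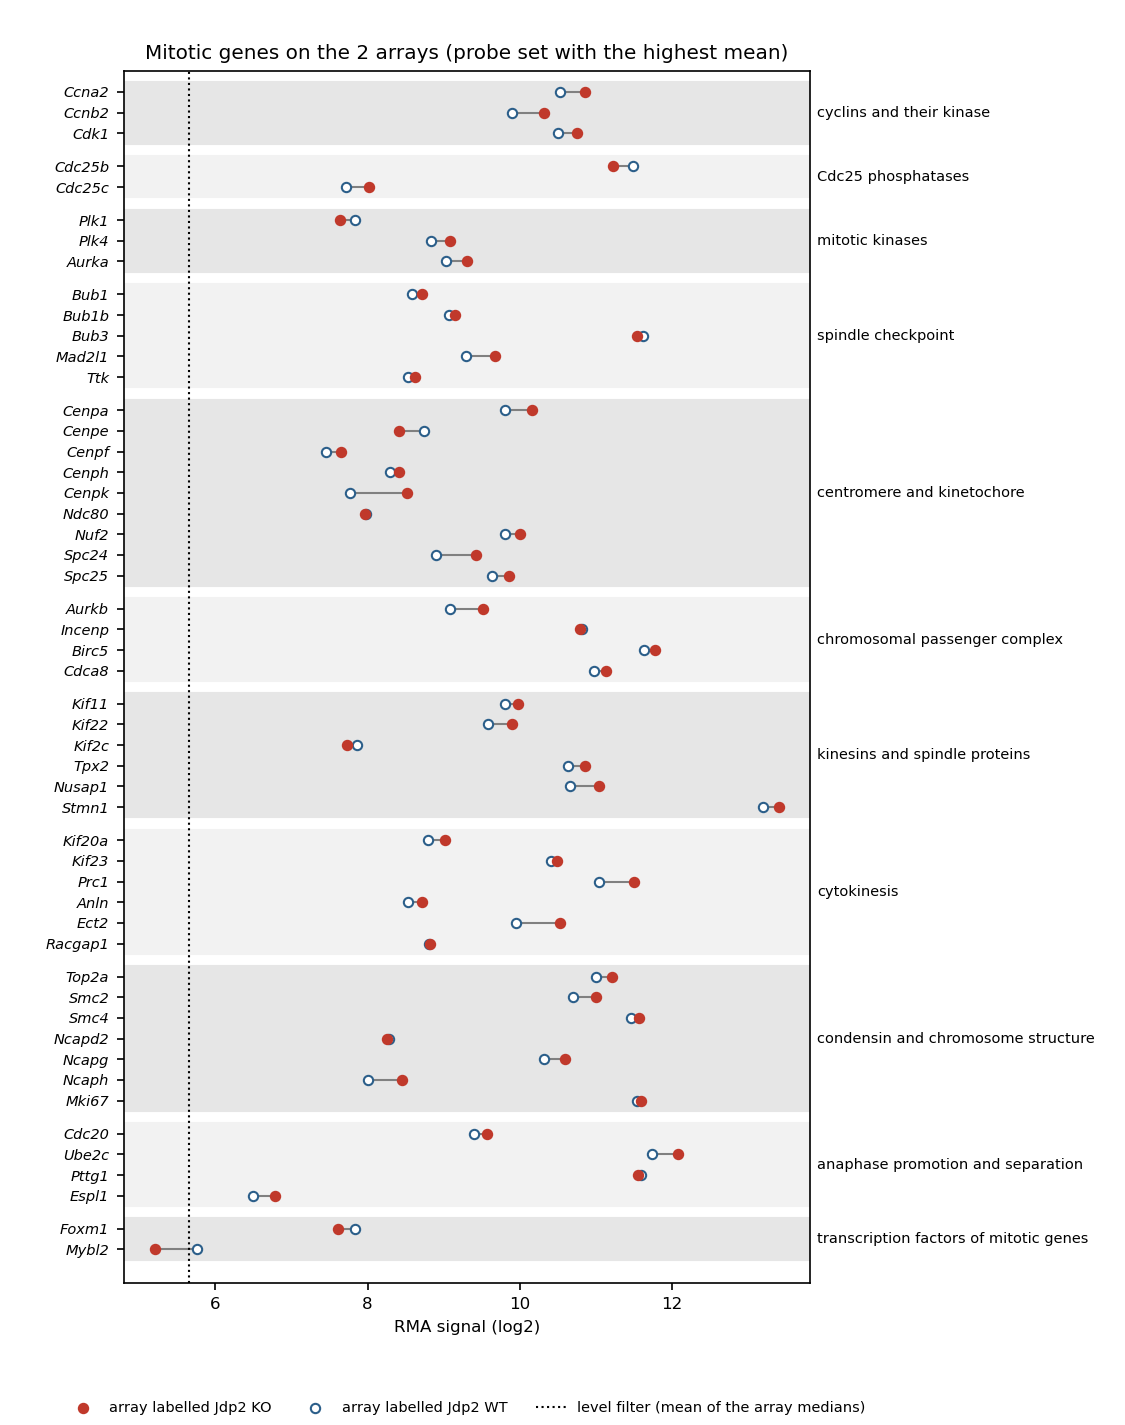
RMA signal (log2, horizontal axis) of each mitotic gene on the array labelled Jdp2 KO (red, filled) and the array labelled Jdp2 WT (blue, open), grouped by role; a grey line joins the values of a gene and the dotted line is the level filter at 5.66. The red point lies to the right for 40 of the 50 genes that passed, and Mybl2 is the gene below the filter.

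The spindle checkpoint, which holds anaphase until each chromosome is attached to the spindle, had a median of 0.10 over 5 genes. Mad2l1, encoding the checkpoint effector Mad2, read 9.68 under the knockout label and 9.30 under the wild-type label, a difference of 0.38. The other checkpoint genes differed by at most 0.13 in either direction: 0.13 for Bub1, 0.10 for the kinase gene Ttk (Mps1), 0.07 for Bub1b (BubR1) and -0.09 for Bub3. Their probe sets disagreed. Those of Bub3 ran from -0.31 to 0.79 over 5 that passed, and those of Bub1b from -0.37 to 0.07 over 3. The second probe set of Ttk differed by -0.53, so Bub1b, Ttk and Bub3 had the other sign when the probe sets of a gene were averaged.

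The centromere and kinetochore genes spanned the whole range of the mitotic genes. Cenpk, a subunit of the constitutive centromere network, had the largest difference of all, with 8.52 under the knockout label and 7.76 under the wild-type label (0.75, 1.69-fold). Its other probe sets, both below the level filter, differed by 0.83 and 1.40, and the probe set at 1.40 was the only one of the 116 past 2-fold. Cenph, its partner in the same network, differed by only 0.12. Cenpa, the histone H3 variant that marks the centromere, read 10.16 under the knockout label and 9.81 under the wild-type label, and its 3 probe sets differed by 0.36, 0.44 and 0.55. All of them lay above 0.

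The Ndc80 complex, which couples the kinetochore to microtubules, moved unevenly over its 4 subunit genes. Spc24 read 9.42 under the knockout label and 8.90 under the wild-type label, a difference of 0.53. Spc25 differed by 0.23 and Nuf2 by 0.20. Ndc80 itself differed by -0.01, reading 7.97 under the knockout label and 7.98 under the wild-type label, and its sign was positive under each of the 3 other scalings tried. Cenpe, the kinesin that carries chromosomes to the spindle equator, had the lowest difference of the genes that passed, at 8.41 under the knockout label and 8.74 under the wild-type label (-0.33). The second Cenpe probe set differed by -0.05. Cenpf, of the outer kinetochore, differed by 0.19 with 1 passing probe set and by -0.24 with the other.

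The chromosomal passenger complex corrects faulty attachments and guides cytokinesis. Its kinase gene Aurkb read 9.52 under the knockout label and 9.08 under the wild-type label (0.44), but the other probe set of Aurkb differed by only 0.01. Birc5 (survivin) differed by 0.15 and Cdca8 (borealin) by 0.16. Incenp, the scaffold of the complex, read 10.79 under the knockout label and 10.82 under the wild-type label (-0.03). The passing probe sets of Incenp ran from -0.24 to 0.33, and the sign changed after removal of a loess trend. The complex as a whole had a median of 0.15.

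Spindle motors and microtubule proteins lay above 0 for 5 of 6 genes (median 0.22). Nusap1, which bundles spindle microtubules, had the largest difference, at 11.05 under the knockout label and 10.66 under the wild-type label (0.39), while its weaker probe set differed by 0.02. Kif22, a chromosome-arm kinesin, differed by 0.31 to 0.38 over 3 probe sets. Kif11, the motor that pushes the spindle poles apart, differed by 0.18 to 0.22 over its 3. These last kinesins had among the smallest spreads between probe sets, with SDs of 0.033 and 0.021. Tpx2, a spindle assembly factor, read 10.86 under the knockout label and 10.64 under the wild-type label, and its other passing probe set differed by 0.40. Stmn1, encoding the microtubule-destabilising protein stathmin, read 13.40 under the knockout label and 13.20 under the wild-type label. The exception was Kif2c, a depolymerising kinesin, at -0.12, with its other passing probe set at 0.08.

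None of the 6 cytokinesis genes was below 0, and their median was 0.20. Ect2, the exchange factor that activates RhoA at the cleavage furrow, read 10.53 under the knockout label and 9.95 under the wild-type label, a difference of 0.59. Prc1, which bundles the central spindle, read 11.51 under the knockout label and 11.04 under the wild-type label (0.46), with a second probe set at 0.41. Both windows printed above for these genes hold a CHR match within 50 bases of the start. Kif20a differed by 0.23, Anln by 0.18 and Kif23 by 0.08. Racgap1, the partner of Kif23 in centralspindlin, read 8.82 under the knockout label and 8.81 under the wild-type label, a difference of 0.00. The second passing probe set of Racgap1 differed by 0.31, that of Kif23 by 0.41 and that of Anln by -0.22.

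Condensin, which compacts chromosomes before they separate, was higher for most subunits. Ncaph read 8.46 under the knockout label and 8.002 under the wild-type label (0.46), and its second probe set differed by 0.60. Smc2 differed by 0.30, with 5 probe sets from 0.10 to 0.75, and Ncapg by 0.28, although its second probe set read 8.16 under the knockout label and 8.17 under the wild-type label. Smc4 differed by 0.11. Ncapd2 read 8.26 under the knockout label and 8.29 under the wild-type label (-0.03), although its second probe set differed by 0.40 and the sign changed after quantile or loess scaling. Of the other chromosome proteins, Top2a, the topoisomerase that untangles sister DNA, differed by 0.21. Mki67, which encodes the proliferation antigen Ki-67, was nearly level at 11.60 under the knockout label and 11.54 under the wild-type label (0.06).

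Genes that promote anaphase were higher in 3 of 4 cases. Ube2c, the ubiquitin-conjugating enzyme of the anaphase-promoting complex, read 12.08 under the knockout label and 11.74 under the wild-type label (0.34). Espl1, encoding separase, differed by 0.29 at a weak signal of 6.78 under the knockout label and 6.49 under the wild-type label. Cdc20, the activator of the complex, differed by 0.17, with its other probe sets at 0.16 and -0.048. Pttg1, encoding securin, the inhibitor of separase, was at -0.04 with its strongest probe set. All 3 probe sets of Pttg1 lay below 0, the lowest at -0.64.

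The transcription factors of the mitotic wave gave no clear direction. Foxm1 read 7.62 under the knockout label and 7.84 under the wild-type label, a difference of -0.22. Its passing probe sets ran from -0.30 to 0.76. Mybl2, encoding B-Myb, was the only measured gene below the level filter, at 5.21 under the knockout label and 5.76 under the wild-type label, and its probe sets differed by -0.56 and 0.36. The probe sets of each factor thus lay on both sides of 0.

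Several probe sets for 1 gene give a measure of technical agreement on the shared RNA, and say nothing of spread between mice. Of the 116 probe sets, 100 passed the level filter and 76 of these lay above 0, against 43.1% of all 18439 single-symbol probe sets that passed. Among the 32 genes with at least 2 passing probe sets, all of them lay above 0 for 19 genes, or 59.4%, and all below 0 for 2 genes (Cenpe and Pttg1). The share of all 4571 genes with at least 2 passing probe sets that had all above 0 was 20.1%. The remaining 11 mitotic genes had passing probe sets on both sides. The pooled SD of the difference between probe sets of 1 gene was 0.26 for the mitotic genes and 0.33 for all genes. Of the 50 mitotic genes, 18 were higher by more than 0.26, against 19.5% of all genes that passed, and 2 were lower by more than that (Cenpe and Cdc25b), against 25.2%. The other 30 lay within it, so most single differences are no larger than the disagreement between probe sets of a gene.

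**Figure D3:**
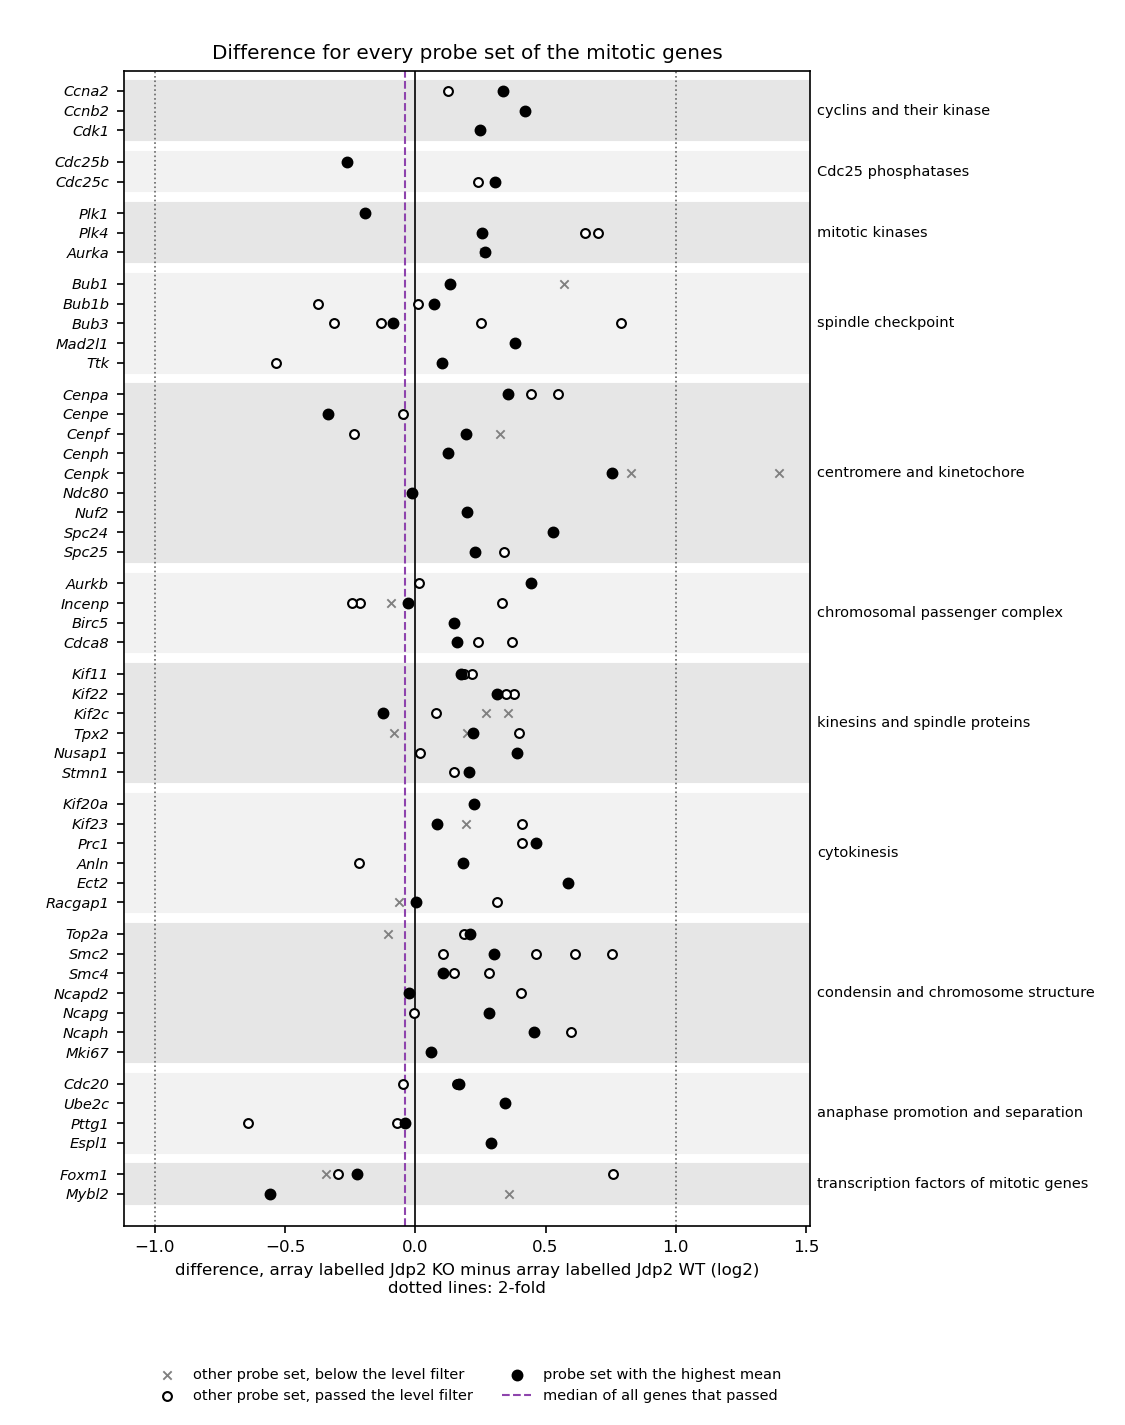
Log2 difference, Jdp2 KO label minus Jdp2 WT label (horizontal axis), for each of the 116 probe sets of the mitotic genes, grouped by role. Filled circles are the probe sets with the highest mean, open circles other probe sets that passed the level filter, crosses those below it, the dashed line the median of all genes that passed (-0.04) and dotted lines 2-fold. Of the 100 passing probe sets 76 lie to the right of 0, and the only probe set past 2-fold is a Cenpk probe set below the filter.

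Other genes of cell division, taken from lists chosen with earlier results of these data known, showed how far the shift reached. Of 74 further kinetochore, spindle and mitotic regulator genes that passed, 55 lay above 0, with a median of 0.19. None was past 2-fold, 11 were at 0.5 or more and 3 at -0.5 or less. Over all genes that passed, 44.4% lay above 0, 8.97% were at 0.5 or more and 10.7% at -0.5 or less. Kif4, a chromosome-bound kinesin, read 7.70 under the knockout label and 6.82 under the wild-type label (0.88). Mastl, the Greatwall kinase, differed by 0.81, but its passing probe sets ran from -0.39 to 0.81. Trip13, which disassembles the checkpoint complex, also differed by 0.81, with its other passing probe set at -0.11. Kif20b (0.69), Kif15 (0.69), Ska1 (0.70), Cenpi (0.64), Nsl1 (0.57) and Cdca5 (0.56) were also among those at 0.5 or more. The other passing probe set of Kif20b differed by 0.17, and that of Cdca5 by -0.14. Wee1, the kinase that inhibits Cdk1, was at 0.39, with its other passing probe set at -0.41. Ercc6l (-0.85) and Depdc1b (-0.61) were the largest negative ones. Ercc6l, a helicase of anaphase DNA bridges, was read weakly, at 5.48 under the knockout label and 6.33 under the wild-type label.

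Medians were closer to 0 for the anaphase-promoting complex and for cohesin with the remaining condensin genes. The anaphase-promoting complex, listed with its activator gene Fzr1, had a median of -0.07 over 15 genes, of which 5 lay above 0. Its median was above 0 after quantile (0.00) or loess scaling (0.01). Anapc16 (0.43), Cdc26 (-0.41), Cdc23 (-0.40) and Cdc16 (0.38) were its largest differences. Cohesin and the remaining condensin genes had a median of 0.08 over 14 genes. Of these, 10 lay above 0, against 44.4% of all genes that passed. The largest differences were those of Esco2 (0.42), the acetyltransferase that modifies cohesin in S phase, Esco1 (0.38), Ncapd3 (0.28) and Wapl (0.24). Passing probe sets lay on both sides of 0 for Cdc26, Esco1 and Wapl.

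DNA replication genes had a median of 0.38 over 26 genes that passed, against 0.20 for the mitotic genes. Of the 26, 24 lay above 0 and 8 were at 0.5 or more, against 44.4% and 8.97% of all genes that passed. Among them were the helicase gene Mcm3, at 8.74 under the knockout label and 7.81 under the wild-type label (0.93), Mcm10 (0.86), Mcm6 (0.75) and the licensing factor gene Cdt1 (0.71). The difference between these medians was not tested. The G1 cyclins, E2F genes and genes of exit from the cycle had a median of 0.05 over 29 genes, with 15 above 0 and 14 below. This median depended on the probe sets. Without those that the maker marks as shared it was 0.26 over 24 genes, against 0.22 for 39 mitotic genes. Tfdp2, a partner of E2F proteins, differed by 0.85 and Ccne2, encoding cyclin E2, by 0.63. Rbl2, encoding the pocket protein p130 that holds DREAM together in resting cells, was lower at 8.59 under the knockout label and 9.37 under the wild-type label (-0.77), with a second probe set at -0.91. E2f4, encoding the E2F subunit of DREAM, was lower too, at 7.15 under the knockout label and 7.69 under the wild-type label (-0.54). Other DREAM or MuvB subunit genes lay on both sides, with Lin9 at 0.48, Lin52 at 0.28, Rbl1 at 0.27, Lin37 at -0.17 and Lin54 at -0.24.

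**Figure D4:**
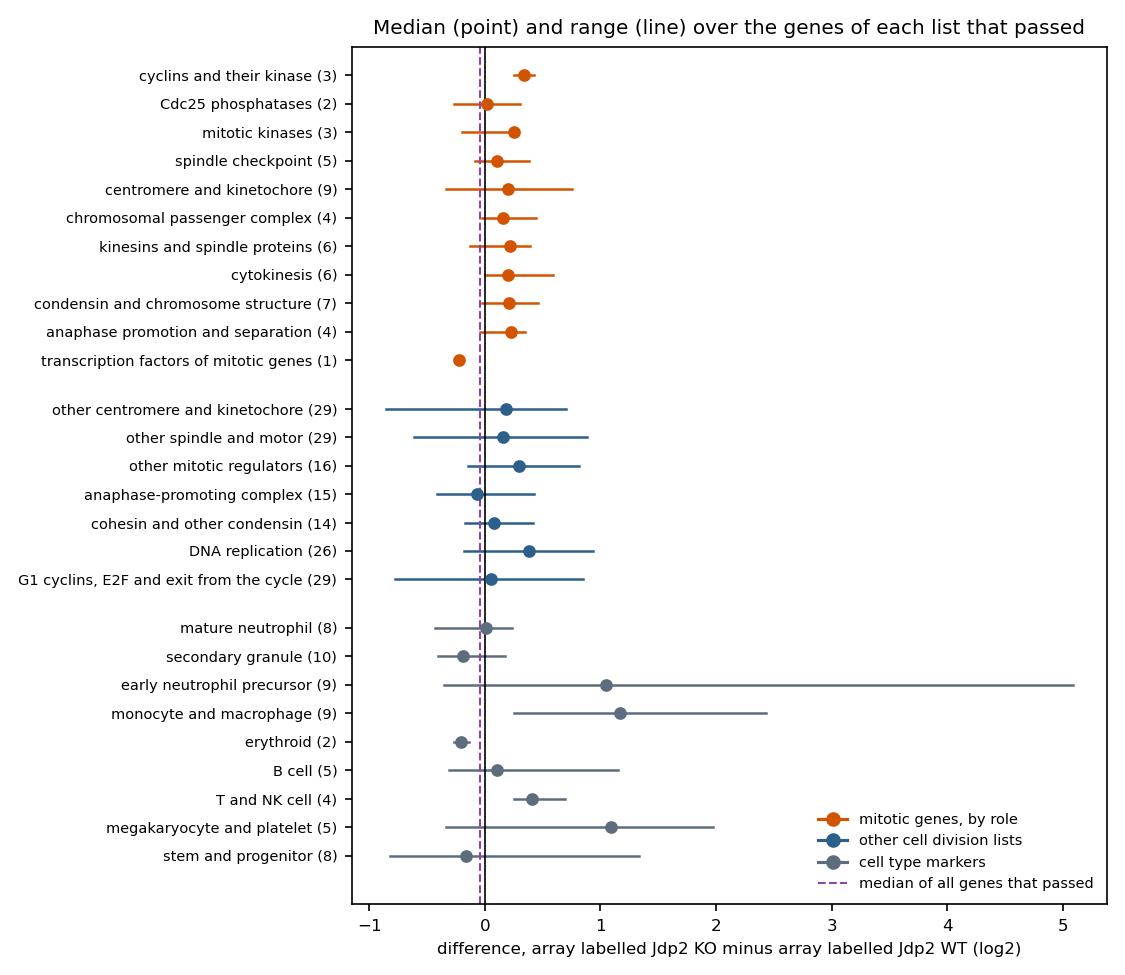
Median (points) and range (lines) of the log2 difference, Jdp2 KO label minus Jdp2 WT label (horizontal axis), over the genes of each list that passed the level filter (numbers in parentheses), for the roles of the mitotic genes (orange), other cell division lists (blue) and cell type markers (grey). The medians of the roles lie between -0.22 and 0.34. Early neutrophil precursor markers reach a difference of 5.09, monocyte and macrophage markers 2.43, and megakaryocyte and platelet markers 1.97.

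Most markers of earlier neutrophil stages and of the monocyte lineage were higher in the same array as the mitotic genes. Of 9 measured markers of early neutrophil precursors, all passed and 6 were at least 2-fold higher under the knockout label, against 2.41% of all genes that passed. Of the 6, 4 also had a wild-type value at or above the filter, while Ctsg and Prtn3 (cathepsin G and proteinase 3) passed only through the array labelled knockout. Mpo, encoding myeloperoxidase, read 11.02 under the knockout label and 5.93 under the wild-type label, whereas Cebpa, encoding a granulocyte transcription factor, differed by -0.35. Fcnb, the strongest gene of the list under both labels, differed by -0.04, and Gfi1 by -0.14. The log2 of the list's summed linear signal was 13.53 under the knockout label and 12.92 under the wild-type label, and its genes ranged from 7.27 to 11.69 under the knockout label and from 4.02 to 11.73 under the wild-type label. Of 12 monocyte and macrophage markers, 9 passed and 7 of these were at least 2-fold higher, among them F13a1, at 7.35 under the knockout label and 4.92 under the wild-type label. Of the 7, 5 also had a wild-type value at or above the filter, while F13a1 and C1qc passed only through the array labelled knockout. Cx3cr1 (0.25) was the lowest of those that passed. The summed signal of the 12 was 12.73 under the knockout label and 12.06 under the wild-type label, with single genes from 5.01 to 11.76 under the knockout label and from 4.78 to 11.48 under the wild-type label. Their part in the mitotic values was not tested, and in bulk samples a change in the number of cells of a type cannot be told apart from a change in RNA per cell.

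Of 5 measured platelet markers, all passed and 4 were above 0, against 44.4% of all genes that passed. Of these, 3 were at least 2-fold higher under the knockout label, against 2.41% of all genes that passed. Each of the 3 had a wild-type value at or above the filter. The median was 1.09, and Ppbp (1.97) and Itga2b (-0.34) were the extremes. The summed signal of the 5 was 11.67 under the knockout label and 10.11 under the wild-type label. Erythroid markers, another source of dividing cells in marrow, were mostly weak: 2 of 9 measured genes passed, Tfrc at -0.27 and Slc4a1 at -0.14. The summed signal of the 9 was 9.91 under the knockout label and 10.15 under the wild-type label. Most of this sum came from Tfrc, which read 9.54 under the knockout label and 9.81 under the wild-type label. The haemoglobin gene Hba-a1 read 3.35 under the knockout label and 3.05 under the wild-type label. Of 10 B cell markers, 5 passed, with a median of 0.10, from Ebf1 (-0.31) to Igll1 (1.15), and a summed signal of 9.61 under the knockout label and 9.57 under the wild-type label. Of 10 stem and progenitor markers, 8 passed, with a median of -0.16, from Kit (-0.82) to Mecom (1.34). Their list had a summed signal of 12.07 under the knockout label and 12.28 under the wild-type label. Most of this sum came from Myb, which read 11.75 under the knockout label and 12.04 under the wild-type label. Of 7 T and NK cell markers, 4 passed, from Cd3e (0.25) to Nkg7 (0.70). Their list had a summed signal of 10.66 under the knockout label and 10.36 under the wild-type label. Most of this sum came from Cd3d, which read 10.20 under the knockout label and 9.89 under the wild-type label. None of 6 eosinophil, basophil and mast cell markers passed, and their summed signal was 7.59 under the knockout label and 7.04 under the wild-type label. Mature neutrophil markers had a median of 0.01 over 8 genes, from Itgam (-0.43) to Cxcr2 (0.24). The secondary granule list, which also holds the receptor gene Ltb4r1, had a median of -0.19 over 10 genes. It ran from Ltb4r1 (-0.41) to Ngp (0.18).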

How the data were processed

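Per the submitters' processing notes, the authors used RMA to make the deposited log2 probe set signals. The sources used here do not give its version or settings. Ranked from low to high, the values of the arrays were never more than 0.117 apart, so they had been brought to a common scale. RMA makes no detection calls and leaves background in weak values, which understates their folds. Precision is limited by the number of arrays.

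Of 45101 probe sets, 64 controls were left out. Of the rest, 34945 had 1 symbol in the platform annotation (34741 matched by Entrez ID to the gene table of GRCm38.p6), 932 had several and 9160 were not listed. The level filter used the mean of both arrays, so that it does not choose genes by their difference. Genes were counted at log2 differences of 0, 0.5 and 1. The procedure was tested on simulated arrays with known shifts.

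The members and lists were chosen with earlier results of these data known. Named were all members, the 4 largest absolute differences of each cell division list, the highest and lowest marker of each cell type, and Jdp2. S100a8, S100a9, Hba-a1, Ctsg, Prtn3, C1qc, Fcnb, Gfi1, Myb, Cd3d and the 5 other DREAM genes were chosen after their values were seen. Alternatives were 3 level filters, 3 scalings (median centring, quantile, loess with span 0.3) and 3 ways to choose probe sets. Python 3.11.15, pandas 2.3.3 and statsmodels 0.14.6 were used.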

Additional observations from a re-analysis of the deposited data

How the results depend on the processing

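Over the 9 alternatives the median difference of the mitotic genes stayed between 0.20 and 0.26, and its distance to the median of all genes between 0.23 and 0.27. The share of genes above 0 ran from 78% (39 of 50, mean of passing probe sets) to 86% (43 of 50, loess). With a filter at the 75th percentile, 84.1% of 44 mitotic genes lay above 0, against 40.7% of all genes that passed it. No alternative brought a mitotic gene past 2-fold. In all 9, where measured, 36 genes kept a difference above 0 and 4 one below 0, and 10 had the other sign in at least 1: 3 of these under another scaling, the others under another choice of probe sets. Genes at 0.5 or more numbered 5 under quantile normalisation, loess removal, the mean of all probe sets and the mean of passing probe sets, against 3 as reported. In that order, the share of all genes at 0.5 or more was 9.86%, 10.2%, 6.39% and 8.39%, against 8.97% as reported. Genes at -0.5 or less numbered 1 with no level filter and with a filter on the higher value (Mybl2, which then passed), and 1 without probe sets that the maker marks as shared (Pttg1, at -0.64), against 0. In that order, the share of all genes at -0.5 or less was 10.9%, 11.6% and 11.4%, against 10.7% as reported. The Cdc25 median was -0.26 under the 75th percentile filter, which left only Cdc25b, and the value for Foxm1, the only transcription factor that passed, was 0.080 with the mean of passing probe sets; the cause was not tested beyond the spread of its probe sets. No paired analysis was possible because each group has 1 array. Weak signal limits Mybl2 and Espl1. Among the other cell division genes, the wild-type values of Tfdp2 (5.75), Mcm10 (5.75) and Cenpi (5.90) lay close to the level filter. Averaged over all probe sets of the gene, the difference was 0.42 for Tfdp2 and 0.36 for Mcm10. The same average was also nearer to 0 for Mcm6 (0.43), Cdt1 (0.20), Nsl1 (0.28), Cdc16 (0.14) and Cdc23 (-0.06). The passing probe sets of Mcm3 ran from 0.23 to 1.19.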
